A study of Rattus norvegicus with 6 samples.

Results

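miR-21, miR-199a and miR-214 are microRNAs known from fibroblasts and the cardiac interstitium. They were followed here in the left ventricle of 3 OLETF rats, a strain that becomes obese and develops type 2 diabetes, and of 3 LETO rats, the non-diabetic control strain. Members were the assays named miR-21 or miR-214 or starting with miR-199a or miR-199b, without the passenger-strand (star) assays. The rule found 4 of 584 miRNA assays, which were miR-21, miR-214, miR-199a-3p and miR-199a-5p. The hearts came from anaesthetised, ventilated rats and were frozen before RNA extraction. The labels name no drug treatment, and the sources used here do not give the rats' age. Diabetes and obesity came with the OLETF strain alone, so they cannot be told apart from strain. The labels do not say whether the rats of a group shared a litter or a day, so p-values measure the spread between these 6 samples.

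A microRNA is cut from a hairpin precursor, and either arm of the hairpin can be loaded into the silencing complex, where bases 2 to 8 (the seed) pair with target mRNAs. miR-21 is known for its rise in cardiac fibroblasts under pressure load. miR-199a and miR-214 are made together from a long transcript on the opposite strand of the dynamin gene Dnm3, and are studied in fibrosis, hypoxia and calcium handling. The miR-199b gene yields a 3p strand of the same sequence as miR-199a-3p, so the 3p assay does not tell the genes apart. In whole ventricle, fewer cells of a type and less RNA per cell cannot be told apart.

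The rat mature sequences are shown because the 4 assays read 4 different seeds. They are from RefSeq (GRCr8), 5′ to 3′, with the seed in capitals. All 4 assays were matched by name to the RefSeq matures. The assay names carry the mouse prefix, and the probe sequences were not used here.

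miR-21 (miR-21-5p): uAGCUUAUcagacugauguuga

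miR-199a-3p: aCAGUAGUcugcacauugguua

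miR-199a-5p: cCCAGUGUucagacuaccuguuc

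miR-214 (miR-214-3p): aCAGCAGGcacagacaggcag

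None of the 4 seeds was shared with another of the 724 rat matures compared. The 3p strand of miR-199b, of the same sequence as miR-199a-3p, was not among the others counted. Matures outside that set, such as those of mouse, were not compared. Other assays on the cards carry the mouse prefix, so the seeds may not be unique, even on these cards. miR-21 lies at chr10:71902653-71902674 on the minus strand, with Vmp1 as the nearest other gene. The other 3 lie on the plus strand of chromosome 13 inside Dnm3, with miR-199a-5p at chr13:77116255-77116277, miR-199a-3p at chr13:77116294-77116315 and miR-214 at chr13:77121713-77121733. From the start of miR-199a-5p to the end of miR-214 the locus spans 5479 bases. The hairpins of miR-21 and miR-214 are shown because the cards also held assays for their second arms, miR-21* and miR-214*. The capitals mark the rat RefSeq matures of both arms. The star assays, whose names also carry the mouse prefix, were matched to them by name only. For miR-214* that mature is 17 bases long, and whether the assay reads this stretch of the hairpin was not tested. Mir21 spans chr10:71902600-71902691 on the minus strand and Mir214 chr13:77121645-77121752 on the plus strand.

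Mir21: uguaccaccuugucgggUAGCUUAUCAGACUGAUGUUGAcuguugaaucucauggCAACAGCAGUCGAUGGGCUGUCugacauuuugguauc

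Mir214: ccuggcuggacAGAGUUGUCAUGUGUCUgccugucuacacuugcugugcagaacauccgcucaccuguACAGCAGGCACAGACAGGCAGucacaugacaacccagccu

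Expression was read by RT-qPCR as the threshold cycle (Ct), the PCR cycle at which a well crosses a fixed signal. The more template a well holds, the earlier it crosses, and with perfect doubling a shift of 1 cycle is a shift of 1 log2 unit. Each sample filled 768 wells in 2 equal blocks, called card A and card B here after the order of wells in the deposited table. All 4 members sat on card A with a single well each. An assay counted as measured below a Ct of 35. The samples measured 197 to 292 of 584 assays, and LETO replicate 3 stood apart with the highest number. Its median Ct over the 122 card A assays measured in every sample was 26.5, against 28.0 to 30.0 in the other 5 samples, while its U6 Ct of 17.9 lay within their range of 17.5 to 19.2. Levels are therefore given in 2 ways, as the U6 Ct minus the assay's Ct (the study's own reference) and as the median Ct of those 122 card A assays minus the assay's Ct. On card B, 189 pairs of wells of the same assay and sample gave a single-well SD of 0.486 cycles. The SD was 0.688 cycles for a difference between 2 wells.

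miR-199a-3p, miR-214 and miR-21 were measured in all 6 samples. miR-199a-3p crossed the threshold at a Ct of 28.4, 28.2 and 24.2 in LETO (here and below in the order of replicates 1, 2 and 3) and at 27.0, 28.2 and 26.1 in OLETF. miR-214 was read at 29.1, 28.9 and 26.0 in LETO and at 27.9, 28.4 and 26.4 in OLETF. miR-21 was read at 30.1, 29.8 and 25.5 in LETO and at 29.5, 29.3 and 27.6 in OLETF. In each of the 3 miRNAs, replicate 3 of LETO had the lowest Ct of all samples and replicate 3 of OLETF the next lowest. The groups overlapped for all 3.

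Of the 3, miR-199a-3p had the highest level in every sample. Its level relative to U6 averaged -8.96 ± 1.63 log2 units over the 6 samples (SD), that of miR-214 -9.71 ± 1.34 and that of miR-21 -10.59 ± 1.77. Within a sample, miR-199a-3p lay 0.20 to 1.76 log2 units above miR-214 (mean 0.75, SD 0.56, 6 of 6 samples). miR-214 lay above miR-21 in 5 of 6 samples (mean 0.87, SD 0.68), the exception being LETO replicate 3 at -0.43. The steps between neighbours were thus a little larger than their own spread. The sources used here give no assay efficiencies, so this is the order of Ct values and may not be that of molecule numbers. Among the assays measured on card A, miR-199a-3p ranked from 34th of 202 in LETO replicate 3 to 48th of 145 in OLETF replicate 2, miR-214 between 45th and 59th and miR-21 between 49th and 70th.

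miR-199a-5p, from the other arm of the miR-199a hairpin, was close to the limit of the assay. It was determined at 36.0, 37.6 and 34.2 cycles in the LETO samples and at 35.5 and 35.5 in OLETF replicates 1 and 3. OLETF replicate 2 gave no Ct. The 5p well thus passed the limit of 35 in LETO replicate 3 alone, at 34.2, and the nearest wells above the limit were at 35.5. In the 5 samples with both Ct values, the 5p well crossed 7.63 to 9.96 cycles after the 3p well. miR-199a-5p was therefore not tested. With a limit of 38, which kept 3 LETO and 2 OLETF samples, its difference relative to U6 was 0.19 log2 units (SE 1.62, limma adjusted p = 0.992).

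**Figure D1:**
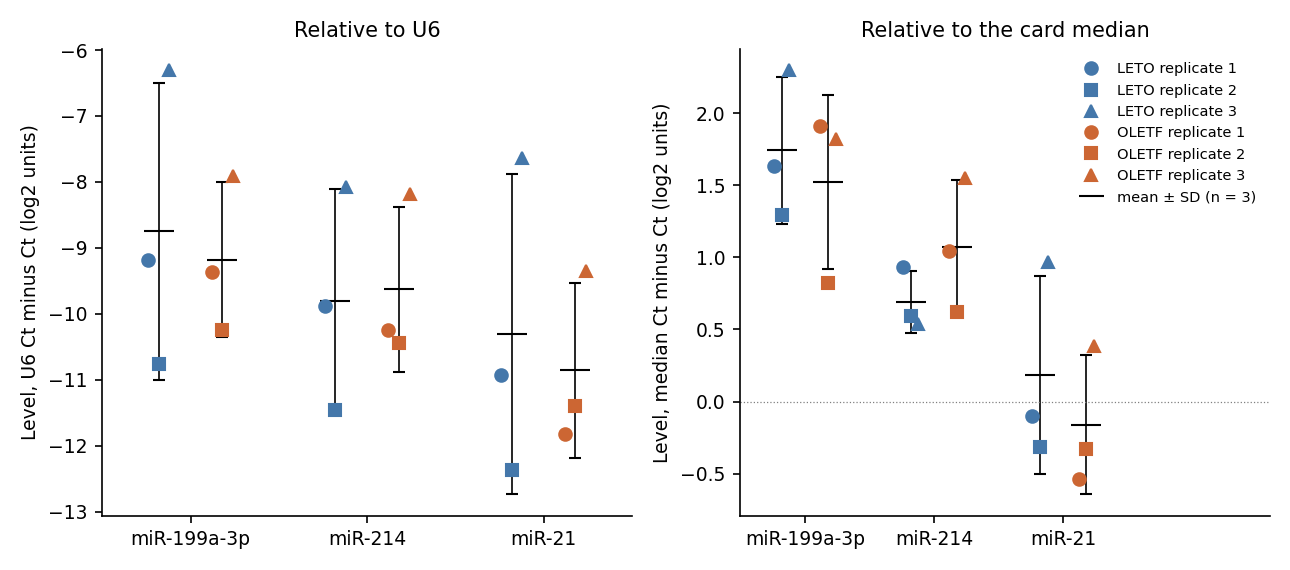
Levels (log2 units, vertical axis) of miR-199a-3p, miR-214 and miR-21 in each of 3 LETO and 3 OLETF ventricles, relative to U6 (left) and to the card A median (right); points are samples, with the group mean and SD. The groups overlap in all 6 comparisons, and LETO replicate 3 is the highest sample in every one but miR-214 relative to the card median, where it is the lowest.

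miR-21 levels overlapped between diabetic and control hearts. Its LETO levels relative to U6 were -10.92, -12.37 and -7.64, and its OLETF levels -11.83, -11.39 and -9.35. The LETO values spanned the whole OLETF range. Their SD was 2.43 in LETO and 1.32 in OLETF, while the limma SE relative to U6 was pooled over all assays. The OLETF mean differed by -0.55 log2 units (SE 1.38, 95% interval -3.25 to 2.16, limma adjusted p = 0.997, exact permutation p = 0.8, n = 3 each), against a median of -0.60 over the 193 assays tested. Relative to the card median its levels were -0.10, -0.32 and 0.97 in LETO and -0.54, -0.33 and 0.39 in OLETF. That difference was -0.34 (SE 0.470, 95% interval -1.42 to 0.73, limma adjusted p = 0.773, exact permutation p = 0.5), against -0.31 over all assays. Without LETO replicate 3 the difference was 0.79 relative to U6 and 0.050 relative to the card median.

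miR-199a-3p likewise gave no difference beyond the spread. Relative to U6 its level was -9.18, -10.76 and -6.31 in LETO and -9.37, -10.24 and -7.92 in OLETF, so that the OLETF values lay within the LETO range. The difference was -0.43 (SE 1.38, 95% interval -3.13 to 2.28, limma adjusted p = 0.997, exact permutation p = 0.8, n = 3 each). Relative to the card median the levels were 1.64, 1.30 and 2.30 in LETO and 1.92, 0.83 and 1.82 in OLETF. That difference was -0.22 (SE 0.455, 95% interval -1.26 to 0.82, limma adjusted p = 0.831, exact permutation p = 0.7). Its sign was set by single samples, as it became 0.80 relative to U6 without LETO replicate 3 and 0.11 without OLETF replicate 2.

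miR-214 had the higher mean in OLETF on all 5 references tried and did not pass the test on any. These references re-express the same single well of miR-214 per sample, so they are not separate evidence. Relative to U6 its level was -9.88, -11.46 and -8.07 in LETO and -10.24, -10.45 and -8.19 in OLETF. The difference was 0.18 (SE 1.38, 95% interval -2.53 to 2.88, limma adjusted p = 0.997, exact permutation p = 1, n = 3 each), but -0.65 without LETO replicate 2 and -0.54 without OLETF replicate 3. Relative to the card median the levels were 0.94, 0.60 and 0.54 in LETO and 1.04, 0.62 and 1.55 in OLETF. OLETF was the higher in 8 of 9 pairs of samples, and the difference was 0.38 (SE 0.388, 95% interval -0.50 to 1.27, limma adjusted p = 0.697, exact permutation p = 0.2). It kept its sign with any single sample left out, from 0.14 without OLETF replicate 3 to 0.61 without OLETF replicate 2. Within replicates 1 and 2 it was 0.066, and 1.01 between the replicate 3 samples.

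miR-214 levels did not overlap between the groups on 2 of the 5 references, the median Ct over both cards and quantile normalization. Relative to the median over both cards they were 0.83, 0.87 and 0.71 in LETO and 1.55, 0.96 and 1.90 in OLETF. All 3 OLETF samples lay above all LETO samples, with a difference of 0.66 (SE 0.428, 95% interval -0.29 to 1.62, limma adjusted p = 0.554). The exact permutation p was 0.1, the smallest that 3 against 3 samples can give. Groups that do not overlap were seen for 14.8% of the 162 assays measured in all samples on this reference, beside 1 of the 3 members. With quantile normalization OLETF was also the higher in 9 of 9 pairs (exact permutation p = 0.1), where 13.6% of assays had groups that do not overlap. The difference was 0.73 (SE 0.253, 95% interval 0.11 to 1.35, limma adjusted p = 0.385), at an unadjusted p of 0.0287, and 11.1% of assays had one under 0.05 there. With the mean of the small RNA controls snoRNA135, U87 and Y1 on card A as reference it differed by 1.03 (SE 0.617, limma adjusted p = 0.976), where all assays shifted by a median of 0.37. Groups that do not overlap were seen there for 6.17% of assays, miR-214 not among them, with OLETF the higher in 8 of 9 pairs.

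**Figure D2:**
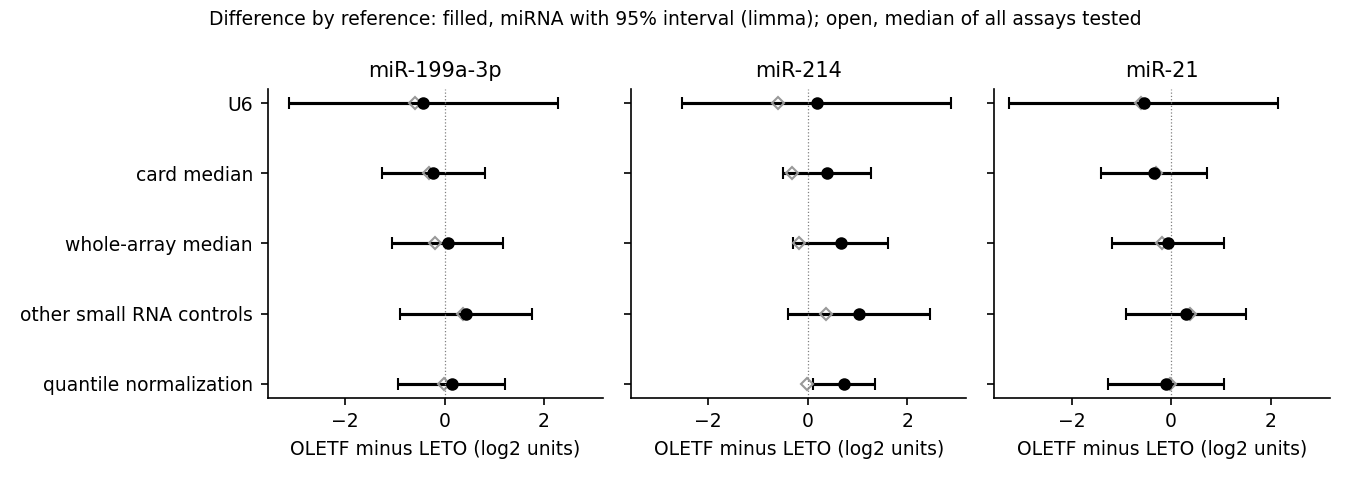
OLETF minus LETO difference (log2 units, horizontal axis) of miR-199a-3p, miR-214 and miR-21 on 5 references (vertical axis); filled points are the miRNA with its 95% limma interval, open diamonds the median of all assays tested. miR-21 and miR-199a-3p lie near the open diamonds, which run from -0.60 with U6 to 0.37 with the other small RNA controls, while miR-214 lies above them by 0.66 to 0.85 log2 units on each reference. All 5 references re-express the same wells, so they are not separate evidence.

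Across all 193 assays tested, 0 passed at an adjusted p under 0.05 with U6 or either median reference (limma, 0% called). At an unadjusted p under 0.05 there were 2 with U6 (1.04%), 12 with the card median (6.22%) and 17 with the median over both cards (8.81%). None of the 3 members tested was among them. With U6, 0% of the 162 assays measured in all samples had groups that do not overlap, and with the card median 13.6% did. None of the 3 members did on these 2 references. The miR-214 difference was larger than that of 87.6% of tested assays with U6 and 85.5% with the card median, that of miR-199a-3p larger than 62.2% and 56.0%, and that of miR-21 larger than 54.9% and 48.2%. The last 2 miRNAs thus lay near the middle of all assays. The authors' deposited table gave ratios of OLETF over LETO of 0.685 for miR-21, 0.745 for miR-199a-3p and 1.13 for miR-214. For miR-199a-5p the authors' deposited table gave 0.403, a value that counts the undetermined well of OLETF replicate 2 as 40 cycles.

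Since the members share a card, the ratio of 1 member to another within a sample needs no reference gene. The log2 ratio of miR-199a-3p over miR-214 was 0.70, 0.70 and 1.76 in LETO and 0.87, 0.20 and 0.27 in OLETF. Its group means were 1.05 ± 0.61 and 0.45 ± 0.37 (SD, n = 3 each), a difference of -0.60 (exact permutation p = 0.3, adjusted p = 0.45 over the 3 ratios). The log2 ratio of miR-214 over miR-21 was 1.04, 0.91 and -0.43 in LETO and 1.58, 0.95 and 1.17 in OLETF. OLETF was the higher in 8 of 9 pairs of samples, with a difference of 0.72 (exact permutation p = 0.2, adjusted p = 0.45). The log2 ratio of miR-199a-3p over miR-21 averaged 1.56 ± 0.21 in LETO and 1.68 ± 0.69 in OLETF. These means differed by 0.12 (exact permutation p = 0.9, adjusted p = 0.9), and the highest sample was OLETF replicate 1 at 2.46.

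The ratios with miR-214 moved most with a single sample. In LETO replicate 3 miR-214 was the lowest of the 3 miRNAs, and in all other samples it was the middle one. Without LETO replicate 3 the OLETF minus LETO difference was -0.25 for miR-199a-3p over miR-214 and 0.26 for miR-214 over miR-21.

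**Figure D3:**
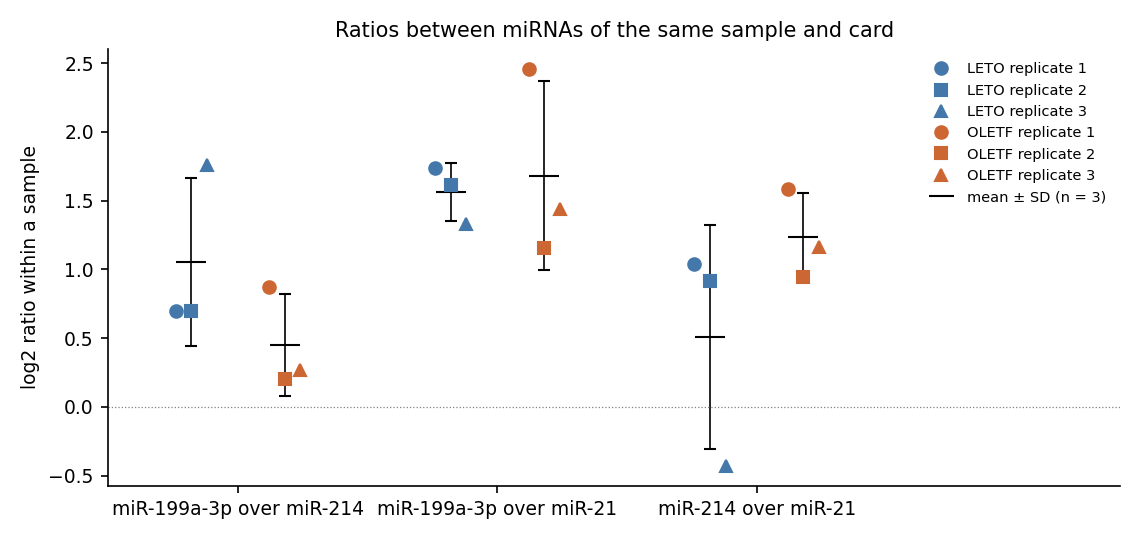
Log2 ratio (vertical axis) between pairs of the 3 miRNAs within each sample; points are samples, with the group mean and SD (n = 3). LETO replicate 3 is the highest LETO sample for miR-199a-3p over miR-214, at 1.76, and the only sample below 0 for miR-214 over miR-21, at -0.43.

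miR-199a-3p and miR-214 varied together across the samples when read against U6. Pearson's r over the 6 samples was 0.947 (exact permutation p = 0.00278, the smallest that 6 samples can give, adjusted p = 0.00833 over 3 pairs), and both miRNAs ranked the samples in the same order (Spearman's rho = 1, exact permutation p = 0.00278, adjusted p = 0.00833). The highest sample for both was LETO replicate 3 and the lowest LETO replicate 2. Within groups, as deviations from the group means, r was 0.970 (exact permutation adjusted p = 0.0167). Without the 2 samples farthest from the median of miR-214, which were replicate 3 of each group, r was 0.922 over 4 samples (exact permutation p = 0.0833). miR-21 followed each of them about as closely, with r = 0.967 to miR-199a-3p and 0.942 to miR-214 (exact permutation adjusted p = 0.0139 and 0.00833).

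Most other assays followed miR-214 about as closely. The median r of miR-214 with the other 161 assays measured in all samples was 0.911 relative to U6, and miR-199a-3p ranked 39th among them. Levels on the same card share the U6 value of their sample. Whole samples moved together relative to U6, and the cause was not tested. Relative to the card median, r between miR-199a-3p and miR-214 was 0.252 (exact permutation p = 0.65, adjusted p = 0.889) and rho was 0.029 (exact permutation p = 1), against a median r of 0.028 over the 161 assays, with miR-199a-3p in 49th place. Without the 2 samples farthest from the miR-214 median, OLETF replicates 1 and 3, r was -0.063, and without LETO replicate 3 it was 0.758 over 5 samples (exact permutation p = 0.1, adjusted p = 0.3). Relative to the card median r thus moved most with LETO replicate 3, where miR-199a-3p was at its highest and miR-214 at its lowest. The within-sample ratio of miR-199a-3p over miR-214 had an SD of 0.560 over the 6 samples, less than the median of 0.765 over the 7381 pairs of card A assays but more than that of 27.0% of them.

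**Figure D4:**
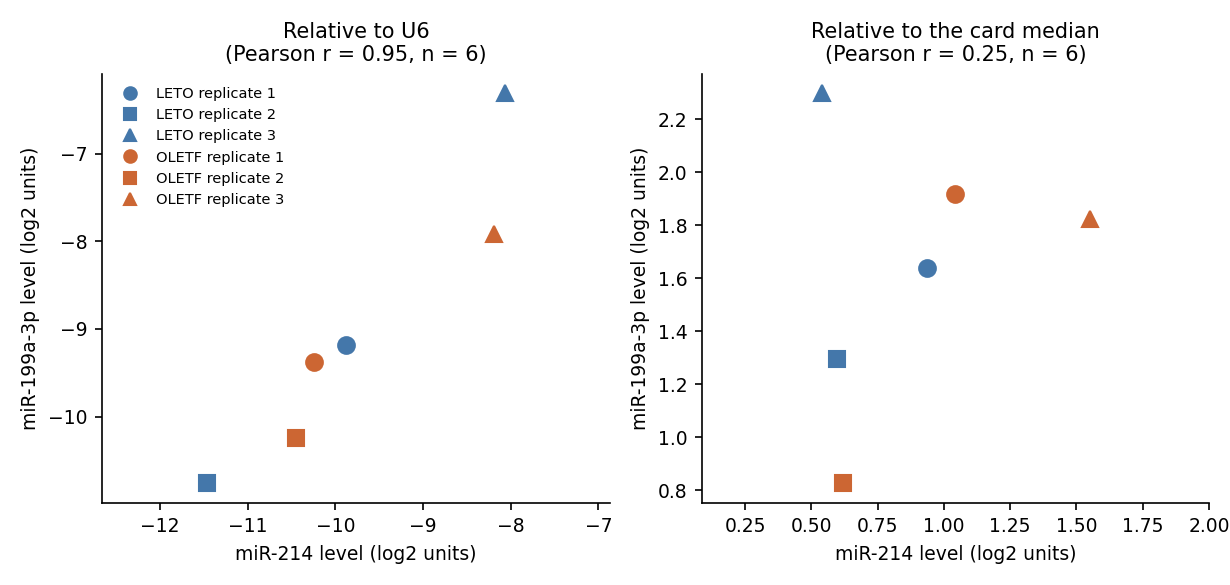
Level of miR-199a-3p (vertical axis) against that of miR-214 (horizontal axis) in log2 units, relative to U6 (left) and to the card median (right); each point is a sample. The points follow a line on the left (r = 0.947) and not on the right (r = 0.252), where LETO replicate 3 is highest for miR-199a-3p and lowest for miR-214.

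**Figure D5:**
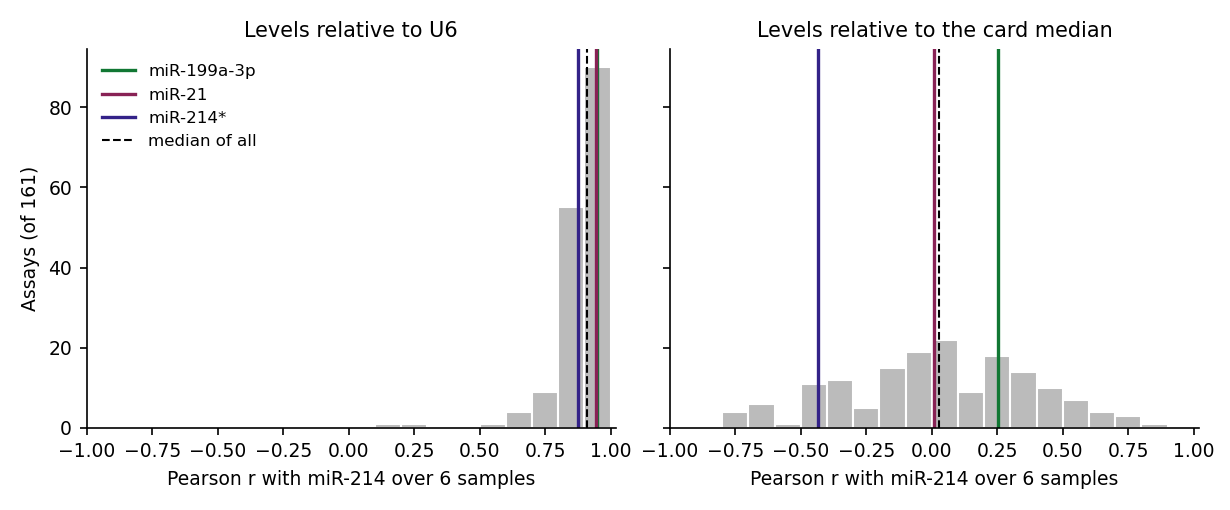
Number of assays (vertical axis, of 161) by their Pearson r with miR-214 over the 6 samples (horizontal axis), relative to U6 (left) and to the card median (right); lines mark miR-199a-3p, miR-21, miR-214* and the median of all. On both references miR-199a-3p lies inside the bulk of assays, at 0.947 beside a median of 0.911 and at 0.252 beside 0.028.

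The assays most like miR-214 and miR-21 were named by their r relative to the card median over the 6 samples, as a description. For miR-214 they were miR-192 (0.805), miR-24 (0.775), miR-365 (0.767), miR-203 (0.701) and miR-222 (0.699). For miR-21 they were miR-497 (0.986), miR-126-5p (0.962), miR-195 (0.957), miR-143 (0.954) and miR-140 (0.950). miR-126-5p is made in endothelium and miR-143 is abundant in smooth muscle, and miR-195 and miR-497 share a precursor. miR-126-3p, from the same hairpin as miR-126-5p, had an r of -0.631 with miR-21 and ranked 125th of 161. For miR-21, r to miR-199a-3p was 0.643 and ranked 51st, and r to miR-214 was 0.0072 and ranked 95th. The lists of 5 assays for miR-214 and miR-21 had none in common. Short lists out of 161 assays seldom share one, so nothing was read from this. For miR-199a-3p, whose list was added after its values were seen, they were miR-148a (0.882), let-7g (0.870), miR-135a* (0.847), miR-30a (0.817) and miR-194 (0.810).

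The passenger strands were scarcer than their guides. miR-214*, the second arm of the miR-214 hairpin, was measured on card B in all 6 samples at a level of -14.11, -16.67 and -10.73 relative to U6 in LETO and -17.19, -15.44 and -13.13 in OLETF. Its OLETF mean differed by -1.42 (SE 1.38, limma adjusted p = 0.997) relative to U6 and by -0.65 (SE 0.563, limma adjusted p = 0.638) relative to the card median, and the groups overlapped. The log2 excess of miR-214 over miR-214*, each against the U6 of its card, was 4.23, 5.21 and 2.66 in LETO and 6.94, 5.0 and 4.94 in OLETF, with the lowest value again in LETO replicate 3. Over the samples, r between the 2 arms was 0.877 relative to U6, in 114th place of 161, and -0.435 relative to the card median, in 144th place. The paired miR-214* wells of OLETF replicate 1 differed most, at 32.9 and 35.4 cycles. miR-21* was read in LETO at 34.8, 34.8 and 34.5 cycles over its 4 determined wells of 6 and gave a Ct in 0 of 6 OLETF wells. Those wells lay close to the limit of 35, and miR-21* was not tested. It was thus measured in all 3 LETO samples and in no OLETF sample. The card B assays miR-467b* and rno-miR-148b-5p were measured in LETO replicates 1 and 3 alone, fewer samples than miR-21*. miR-721 was measured in OLETF replicate 3 alone. The share of assays with each of these patterns was not counted. In LETO, miR-21 exceeded miR-21* by 6.16, 6.35 and 8.95 log2 units. miR-199b* was the only assay on the cards named for the miR-199b hairpin. It was under the limit in LETO replicate 3 alone, at 33.0 cycles. In the other samples its determined wells averaged 35.6 to 36.8 cycles.

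Among the other miRNAs tied to fibrosis, 0 passed the test on any of the 5 references (limma). Of a list of 12 miRNAs known as profibrotic, 10 were on the cards and 9 were tested. Leaving out miR-21 and miR-214, 2 of 7 lay higher in OLETF and 5 lower relative to U6, with a median of -0.27, and 3 and 4 relative to the card median, with a median of -0.067. The split was 4 higher and 3 lower with the median over both cards (median 0.22) and with quantile normalization (median 0.066), and 5 and 2 with the other small RNA controls (median 0.58). Over all 193 assays, 37 lay higher and 156 lower with U6, and 63 and 130 with the card median. The split of all assays was 73 and 120 with the median over both cards and 145 and 48 with the other small RNA controls. With quantile normalization it was 79 and 83 of 162. Of the 7, 2 had an unadjusted limma p under 0.05 with the median over both cards, beside 8.81% of all assays. With quantile normalization 2 did, beside 11.1% of all assays, and on the other references 0 did. miR-155, an immune cell miRNA, differed by 0.69 (U6) and 0.90 (card median), and miR-132, a regulator of growth signalling, by 0.39 and 0.59. miR-34a, a p53 target, differed by -1.31 and -1.11, and miR-22, abundant in heart muscle, by -1.68 and -0.92. The adjusted p of these 4 was 0.997 with U6 and from 0.632 to 0.634 with the card median (limma).

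Of a list of 16 miRNAs known as antifibrotic or collagen-targeting, 15 were tested, 14 of them lower in OLETF relative to U6 (median -0.54) and 13 relative to the card median (median -0.34). These medians lay close to those of all assays, -0.60 and -0.31. The collagen-targeting miR-29a differed by -0.26, miR-29b by -0.63 and miR-29c by -0.75 relative to the card median, and miR-101a, which targets Fos, by -0.84. miR-24, a fibroblast regulator that ranked second in likeness to miR-214, differed by 0.13 and miR-15b by 0.36 on that reference. With the median over both cards the split was 7 higher and 8 lower, beside 73 and 120 over all assays. With the other small RNA controls it was 12 and 3, beside 145 and 48. The direction of the list thus changed with the reference. Relative to the card median, miR-101a had groups that do not overlap, at -1.47, -1.56 and -1.48 in LETO and -2.05, -2.81 and -2.19 in OLETF. So did miR-29b, at -0.15, -0.59 and -0.38 in LETO and -0.94, -1.28 and -0.79 in OLETF. Such groups were seen for 13.6% of the 162 assays there. Of the 15, 1 had an unadjusted limma p under 0.05 with the card median and 1 with quantile normalization, beside 6.22% and 11.1% of all assays.

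Markers of heart muscle were measured throughout, 7 of 7 assays in all samples, from miR-133a at a mean of 0.67 relative to U6 to miR-208b at -14.58. Relative to the card median, the mean over the 7 muscle assays was 2.59 to 3.58 in LETO samples and 2.55 to 2.81 in OLETF samples. The 2 smooth muscle assays averaged 3.61 to 4.86 in LETO and 3.46 to 4.38 in OLETF, and the 2 endothelial assays 6.81 to 7.04 and 6.42 to 7.17. Of the leukocyte list, 5 of 6 were measured in all samples, at 2.32 to 3.37 in LETO and 3.10 to 3.25 in OLETF. Of the erythroid list, miR-486 alone was measured in all samples, at 3.78 to 6.13 and 5.17 to 6.05, and miR-451 in 1 LETO and 0 OLETF samples. All these ranges of sample means overlap between the groups. Of single muscle assays, 7 of 7 had the lower mean in OLETF relative to U6 and relative to the card median. Over all assays, 156 and 130 of 193 did. With the median over both cards 3 muscle assays lay higher and 4 lower, beside 73 and 120 over all assays. The split was 4 and 3 with quantile normalization, beside 79 and 83. With the other small RNA controls it was 5 and 2, beside 145 and 48. Of the muscle assays, 0 passed the test (limma). Relative to the card median, miR-499 had groups that do not overlap, at 1.45, 1.14 and 1.32 in LETO and 0.28, 0.35 and 0.59 in OLETF. So did rno-miR-1, the rat assay of miR-1, at 6.36, 6.46 and 6.36 in LETO and 5.98, 5.88 and 5.69 in OLETF. Such groups were seen for 13.6% of the 162 assays measured in all samples on that reference. The second miR-1 assay, mmu-miR-1, overlapped, at 3.22, 3.93 and 1.23 in LETO and 2.10, 1.03 and 1.92 in OLETF. The part of these cell types in the values of miR-21, miR-199a-3p and miR-214 was not tested.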

How the data were processed

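Left ventricles of 3 LETO and 3 OLETF rats were profiled on TaqMan rodent miRNA cards, per the labels' protocols. The deposited Ct table gives a Ct per well, per the file headers. The deposited normalized table is a log2 quantity, delta Ct, per the labels with U6 as control. Subtracting each card's mean U6 Ct (4 wells) from a Ct gave the same values for the members within 2.5e-06. The third deposited table is a linear ratio (fold), per the file headers. Baseline and threshold settings are not given in the sources used here. Determined wells were averaged, and Ct of 35 or more was treated as not measured. Assays measured in at least 2 of 3 samples per group were tested with limma 3.58.1 (R 4.3.3). It was run with lmFit and eBayes, two-sided, with Benjamini-Hochberg over 193 assays. The code was tried on simulated data with independent assays, less spread than these levels and large set differences. That trial checks the code and not the power of the test here. With U6, limma pooled the SE over assays (1.38 for each member), which adds no replicates. These SEs, intervals and p-values therefore do not measure the spread of each miRNA by itself. Fits used the measured samples only, with no value imputed. Single values, ratios and correlations had two-sided exact permutation tests (SciPy 1.17.1). All members, the 5 assays most like miR-21 and miR-214, and members of the fixed lists could be named. The members and lists were chosen with earlier results of these data known. The other small RNA controls were snoRNA135, U87 and, on card A, Y1. Alternatives were other references, Ct limits of 32, 38 or none, the deposited table, blocks, and samples left out. Each card A value rests on a single well.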

Additional observations from a re-analysis of the deposited data

How the results depend on the processing

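The count of assays at adjusted p under 0.05 (limma) was 1 with the replicate block and 1 with replicate 3 as a batch block, each time miR-466d-3p, which is no member, and 0 otherwise. Same-numbered samples did not deviate together throughout (correlations -0.088, 0.23 and 0.62 by number), and were not treated as pairs. The replicate block left the members at -0.43 (miR-199a-3p), -0.55 (miR-21) and 0.18 (miR-214) with no call. Adjusted p for the members ran from 0.385 to 1.00 over 25 alternatives each. The sign of miR-199a-3p turned with the median over both cards (0.060), the other small RNA controls (0.43), quantile normalization (0.15) and replicates 1 and 2 only (0.16), and that of miR-21 with the other small RNA controls (0.31) and replicates 1 and 2 only (0.037); the cause was not tested. With 1 sample left out, U6-relative differences ran from -1.43 to 0.80 (miR-199a-3p), -1.58 to 0.79 (miR-21) and -0.65 to 1.05 (miR-214), and those relative to the card median from -0.45 to 0.12 (0.055 without LETO replicate 3), -0.62 to 0.050 and 0.14 to 0.61. The ratio differences then ran from -0.82 to -0.25 (miR-199a-3p over miR-214), -0.27 to 0.38 (miR-199a-3p over miR-21) and 0.26 to 0.99 (miR-214 over miR-21).

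The correlation of miR-199a-3p with miR-214, 0.947 with U6, no longer passed with the card median (0.252; 0.466 for deviations from the group means; -0.063 without the 2 farthest samples), the median over both cards (0.395), the other small RNA controls (0.767), quantile normalization (0.524) or U6 without the 2 farthest samples (0.922); the cause was not tested. With 1 sample left out it ran from 0.930 to 0.980 with U6. Its exact permutation p was 0.0167 each time, the smallest that 5 samples gave here, and its adjusted p was 0.05, no longer under the threshold, without LETO replicate 1, 2 or 3 or OLETF replicate 3. It ran from -0.0030 to 0.758 with the card median (0.208 and 0.191 without OLETF replicates 1 and 3). The percentile alternative for levels has another unit and is given as ranks. Signal limits miR-199a-5p, whose wells lay about the Ct limit.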
